A study of Rattus norvegicus with 38 samples.

Results

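Kidneys of rats given the antiserum anti-Fx1A alone were compared with kidneys of rats given L-NAME alone. The animals were those titled with a single treatment: 10 with anti-Fx1A and 10 with L-NAME, 20 of the 38 animals of the series. Anti-Fx1A was dosed at 2.5 mL/kg and L-NAME at 20 mg/kg per day, with tissue taken after 7 weeks. The other animals were 10 with a combination, in which anti-Fx1A was given at the lower dose of 2.0 mL/kg beside the same daily dose of L-NAME, and 8 with vehicle. The labels give no strain, sex, age or dosing schedule of the antiserum. RNA of the whole kidney was read from the 3' ends of transcripts, so the values are averages over all cell types of the organ. Fewer cells of a type and less RNA per cell cannot be told apart in such samples.

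Anti-Fx1A is an antiserum raised against brush border material from rat proximal tubules. In Heymann nephritis, the rat model of membranous nephropathy that it induces, antibodies bind megalin and other antigens on the foot processes of podocytes, and immune deposits with complement form beneath these cells and make the filter leak protein. L-NAME is an arginine analogue that inhibits the nitric oxide synthases. With less nitric oxide the vessels constrict and blood pressure rises, and the kidney is injured through its arteries and glomeruli. One agent thus acts through antibodies on epithelial cells and the other through vascular tone, and the comparison asks how far the kidney transcriptome differs between them.

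The table identifies genes by Ensembl rat identifiers only, and 0 of the 30207 identifiers could be paired with a symbol or a sequence from the tables used here. Genes are therefore described by their number, level and direction in each group, and 4 of them by identifier, and the kidney markers were not checked. Values are log2 levels that the authors had scaled and variance-stabilised. A difference of 1 is a doubling at high counts, and the change of genes with few reads is understated. Reads per library, recovered from the table, lay between 4434855 and 7119831 with anti-Fx1A and between 4870234 and 7563685 with L-NAME.

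The anti-Fx1A libraries fell into distinct sets that the labels do not explain. Animals 9 to 12 had 4434855 to 5228067 reads, of which 18.2 to 25.7% came from the 10 most abundant genes. Animals 13 to 18 had 6454754 to 7119831 reads, with 30.1 to 38.4% from those genes. On the leading principal component of the 20 animals, which held 31.1% of the variance, animals 9 to 12 lay between -31.5 and -15.7 and animals 13 to 18 between -3.68 and 15.2. L-NAME animals spread from -15.5 to 48.2, where animal 25 stood at the high end and the next highest was 22.5. The SD of a gene between animals had a median over genes of 0.235 with anti-Fx1A and 0.227 with L-NAME. Without animals 9 to 12 it was 0.173 with anti-Fx1A, and without animal 25 it was 0.208 with L-NAME. The counts of called genes are therefore also given with animals 9 to 12 and with animals 13 to 18 left out.

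**Figure D1:**
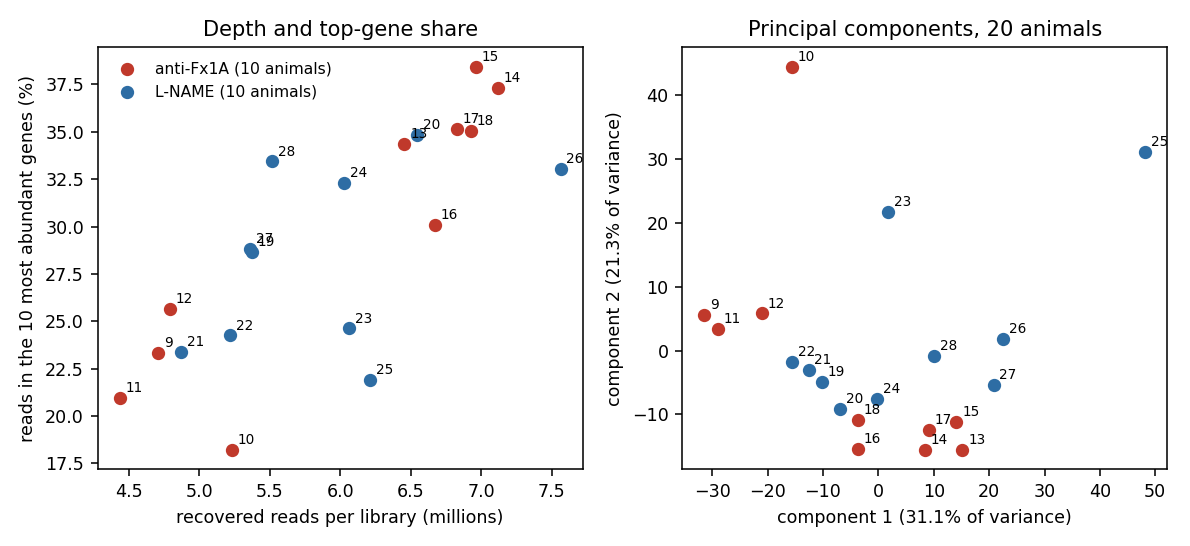
Left, recovered reads per library against the percent of reads in the 10 most abundant genes; right, the leading principal components of the 12599 genes tested. Each point is an animal, labelled with its number, of anti-Fx1A (red, 10) or L-NAME (blue, 10). Animals 9 to 12 lie apart from animals 13 to 18 in both panels, at 18.2 to 25.7% against 30.1 to 38.4% of reads in the top genes.

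Few genes were called between the single treatments when all 10 anti-Fx1A animals were used, and more of them were higher than lower with the antiserum. Of the 12599 genes tested, 48 were called, which is 0.381% (limma, Benjamini-Hochberg adjusted p under 0.05, two-sided). Levels were higher with anti-Fx1A than with L-NAME in 31 genes (0.246%) and lower in 17 genes (0.135%). This balance turned in other fits: voom on the recovered reads called 17 higher and 26 lower, and a fit with the percentage of reads in the 10 top genes as a covariate called 38 higher and 47 lower. The 31 higher genes differed by a median of 0.59 log2 units, with a range of 0.26 to 1.03. The 17 lower genes differed by a median of -0.43, with a range of -0.65 to -0.34. Over all genes tested the median difference was 0.0084 and the median absolute difference 0.092. The median absolute difference from L-NAME was larger within each set of anti-Fx1A animals, at 0.17 for animals 9 to 12 and 0.11 for animals 13 to 18. These sets hold 4 and 6 animals, and means of fewer animals vary more. The part of set size in the larger values was not tested. At an unadjusted p under 0.05 there were 1389 genes (11.02%), of which 691 were higher and 698 lower with anti-Fx1A. There was no gap at the threshold: the last gene called had an adjusted p of 0.0492 and the next gene 0.0502. At an adjusted p under 0.1 the count was 79, and under 0.01 it was 13.

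The number of genes called, and which genes, depended strongly on which anti-Fx1A animals were used. The sets had been split because they stood apart in these same libraries. Such a choice in itself favours many calls in a set and opposite signs between sets. The counts below describe the split and do not test it. Animals 13 to 18 alone against L-NAME gave 137 of the 12599 genes tested, of which 92 were higher and 45 lower. Animals 9 to 12 alone gave 1264 of the 12599, of which 689 were higher and 575 lower. Most of the genes called with animals 9 to 12 did not stand on that side of L-NAME in animals 13 to 18. The 689 higher genes had a median difference from L-NAME of 0.59 in animals 9 to 12 and -0.047 in animals 13 to 18, and the 575 lower genes medians of -0.48 and 0.034. In 747 of the 1264 genes the sign was opposite in animals 13 to 18, although both sets were compared with the same L-NAME animals. The sign was the same in both sets in 40.9% of these genes and in 46.6% of all genes tested. Opposite signs were thus common over all genes and not particular to the called ones. Among the genes called with animals 13 to 18, 39 of the 92 higher and 20 of the 45 lower had the opposite sign in animals 9 to 12. The 92 higher genes had medians of 0.50 in animals 13 to 18 and 0.058 in animals 9 to 12. The 45 lower genes had medians of -0.53 and -0.036 in the same order. Of the 48 genes, 29 were called with animals 13 to 18 alone, 33 with animals 9 to 12 alone and 15 in both fits. The 31 higher genes had a median difference from L-NAME of 0.45 in animals 9 to 12 and 0.55 in animals 13 to 18. The 17 lower genes had medians of -0.49 and -0.44 in these sets. All 48 had the same sign in both sets, but they had been chosen on the 10 animals together, which favours genes in which the sets go the same way, and they do not stand for the genes called in either set. With the percentage of reads in the 10 top genes as a covariate, 85 genes were called, and these included all 48. With depth as a covariate, 48 were called, 45 of them the same. The part of library depth and of the share of top genes in the remaining calls was not tested.

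The largest differences were mostly not called. Of the 12599 genes, 74 differed by at least 1.5-fold on the deposited scale (0.587%), and of these 16 were called higher and 3 lower. A single called gene reached 2-fold on that scale, and it was higher with anti-Fx1A. With voom on the recovered reads, ENSRNOG00000005574 differed by 1.74 log2 units and ENSRNOG00000015036 by 1.04. The 2-fold count and the ranking by size therefore hold for the deposited scale only. Among the 10 genes with the largest differences on that scale in either direction, which all reached 0.93 log2 units, 2 were called. Their median SD was 1.21 with anti-Fx1A and 0.62 with L-NAME, against 0.21 and 0.23 for the 48 called genes. Adjusted p among the 10 ran from 3.47e-05 to 0.616, and 2 of them had 0 reads in at least 1 of the 20 animals. No gene was read in all 10 animals of a treatment and in 0 animals of the other. In 5 genes (0.0397%) the animals of the treatments did not overlap at all, and all 5 were higher with anti-Fx1A.

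The called genes came from the whole range of expression. In 5 bins of about equal number from low to high mean level, 6, 6, 6, 7 and 6 of the higher genes were found, and 2, 2, 5, 0 and 8 of the lower genes. The lower genes thus lay most often in the bin of highest expression. The median level of the higher genes was 7.60 with anti-Fx1A and 7.07 with L-NAME, and their median number of reads was 152.5 with anti-Fx1A and 99.5 with L-NAME. The lower genes had a median level of 7.29 with anti-Fx1A and 7.69 with L-NAME, with 131 and 163.5 reads in the same order.

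**Figure D2:**
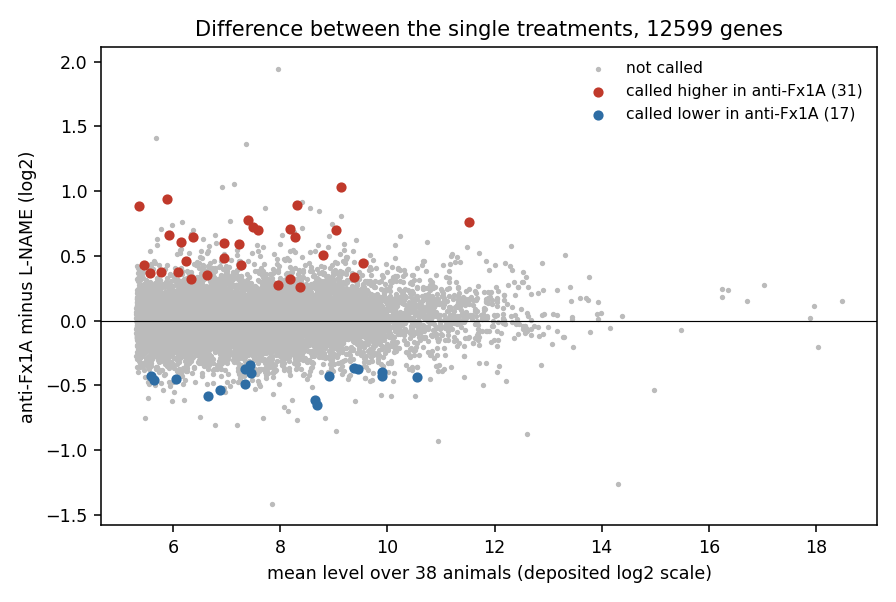
Difference between the single treatments (anti-Fx1A minus L-NAME, log2, vertical) against the mean level over 38 animals (deposited log2 scale, horizontal) for 12599 genes. Red marks the 31 genes called higher and blue the 17 called lower (limma, adjusted p under 0.05); several grey genes that were not called lie further from 0 than the called ones.

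ENSRNOG00000015036 had the largest difference on the deposited scale among the genes called higher, and its level also separated the anti-Fx1A animals from each other. Its level in anti-Fx1A kidneys had a lowest value of 8.93, a median of 9.69 and a highest value of 10.8, against 8.20, 8.71 and 9.51 in L-NAME kidneys. The highest values belonged to anti-Fx1A animals 9 to 12, at 10.01 to 10.84, while animals 13 to 18 stood at 8.93 to 9.77 and overlapped L-NAME. In all, 6 of 10 anti-Fx1A animals lay above the highest L-NAME animal. The mean was 9.81 ± 0.57 with anti-Fx1A and 8.78 ± 0.41 with L-NAME (SD, n = 10 each), a difference of 1.03 (SE 0.19, limma adjusted p = 0.00334). Without animals 9 to 12 the difference was 0.65 and was not called (limma adjusted p = 0.0552, within 7.41e-05 to 0.0552 over 33 alternatives). Levels in the combination averaged 9.17 ± 0.25 (n = 10) and in vehicle 8.70 ± 0.44 (n = 8), and this difference of 0.47 did not pass (SE 0.20, limma adjusted p = 0.0571), although it did in a fit of these groups alone (SE 0.15, adjusted p = 0.0174). Against vehicle, anti-Fx1A was higher by 1.11 (SE 0.20, limma adjusted p = 0.00151), whereas the 0.080 with L-NAME did not pass (adjusted p = 0.824).

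ENSRNOG00000005574 separated the treatments without overlap, although it is a gene of low expression. In anti-Fx1A kidneys its lowest level was 6.04, its median 6.51 and its highest 6.71, against 5.27, 5.46 and 5.79 in L-NAME kidneys. These correspond to 28 to 70 reads per animal with anti-Fx1A and 8 to 28 reads with L-NAME, in libraries of unequal depth. All 10 anti-Fx1A animals lay above the highest L-NAME animal, and animals 9 to 12 (6.04 to 6.71) and 13 to 18 (6.21 to 6.59) covered the same range. The mean was 6.44 ± 0.21 with anti-Fx1A and 5.50 ± 0.17 with L-NAME (SD, n = 10 each), and the difference of 0.94 had the lowest adjusted p of all genes (SE 0.12, limma adjusted p = 3.47e-05). It had a mean of 6.16 ± 0.38 in the combination and 5.37 ± 0.33 in vehicle. Anti-Fx1A was 1.07 above vehicle (SE 0.13, limma adjusted p = 6.71e-06), while the 0.13 with L-NAME did not pass (adjusted p = 0.553). The combination animals were 0.78 above vehicle (SE 0.13, limma adjusted p = 1.84e-05), and 7 of 10 lay above the highest vehicle animal.

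ENSRNOG00000064754 had the largest difference on the deposited scale among the genes called lower with anti-Fx1A, and the least firm call of the 4. Its lowest level was 7.58, its median 8.37 and its highest 8.90 in anti-Fx1A kidneys, against 8.58, 8.98 and 9.51 in L-NAME kidneys. The lowest values were those of anti-Fx1A animals 9 and 11, and 7 of 10 anti-Fx1A animals lay below the lowest L-NAME animal. The mean was 8.34 ± 0.41 with anti-Fx1A and 8.98 ± 0.31 with L-NAME (SD, n = 10 each), a difference of -0.65 (SE 0.15, limma adjusted p = 0.0435). It was called in 16 of 33 alternatives, with limma adjusted p between 0.00749 and 0.114, and without animals 9 to 12 the difference was -0.48 (adjusted p = 0.114). Levels averaged 9.10 ± 0.40 in the combination and 8.21 ± 0.29 in vehicle, a difference of 0.89 (SE 0.16, limma adjusted p = 5.67e-05). L-NAME was 0.78 above vehicle (SE 0.16, limma adjusted p = 0.00112), and the 0.13 with anti-Fx1A did not pass (adjusted p = 0.793).

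ENSRNOG00000033979 was also lower with anti-Fx1A, and its call held in all 33 alternatives. The lowest level in anti-Fx1A kidneys was 8.04, the median 8.34 and the highest 8.60, against 8.57, 8.98 and 9.49 in L-NAME kidneys. Only the highest anti-Fx1A animal reached the L-NAME range, and 9 of 10 lay below it. Its mean was 8.33 ± 0.20 with anti-Fx1A and 8.94 ± 0.28 with L-NAME (SD, n = 10 each), a difference of -0.61 (SE 0.11, limma adjusted p = 0.00334). The combination had a mean of 8.95 ± 0.30 and vehicle one of 8.28 ± 0.20. L-NAME was 0.66 above vehicle (SE 0.12, limma adjusted p = 0.000183), and the 0.046 with anti-Fx1A did not pass (adjusted p = 0.912). In the combination it was 0.67 above vehicle (SE 0.12, limma adjusted p = 2.95e-05), with 9 of 10 animals above the highest vehicle animal. The pairs of genes shown thus differed in which treatment stood away from vehicle: anti-Fx1A for the pair called higher and L-NAME for the pair called lower.

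**Figure D3:**
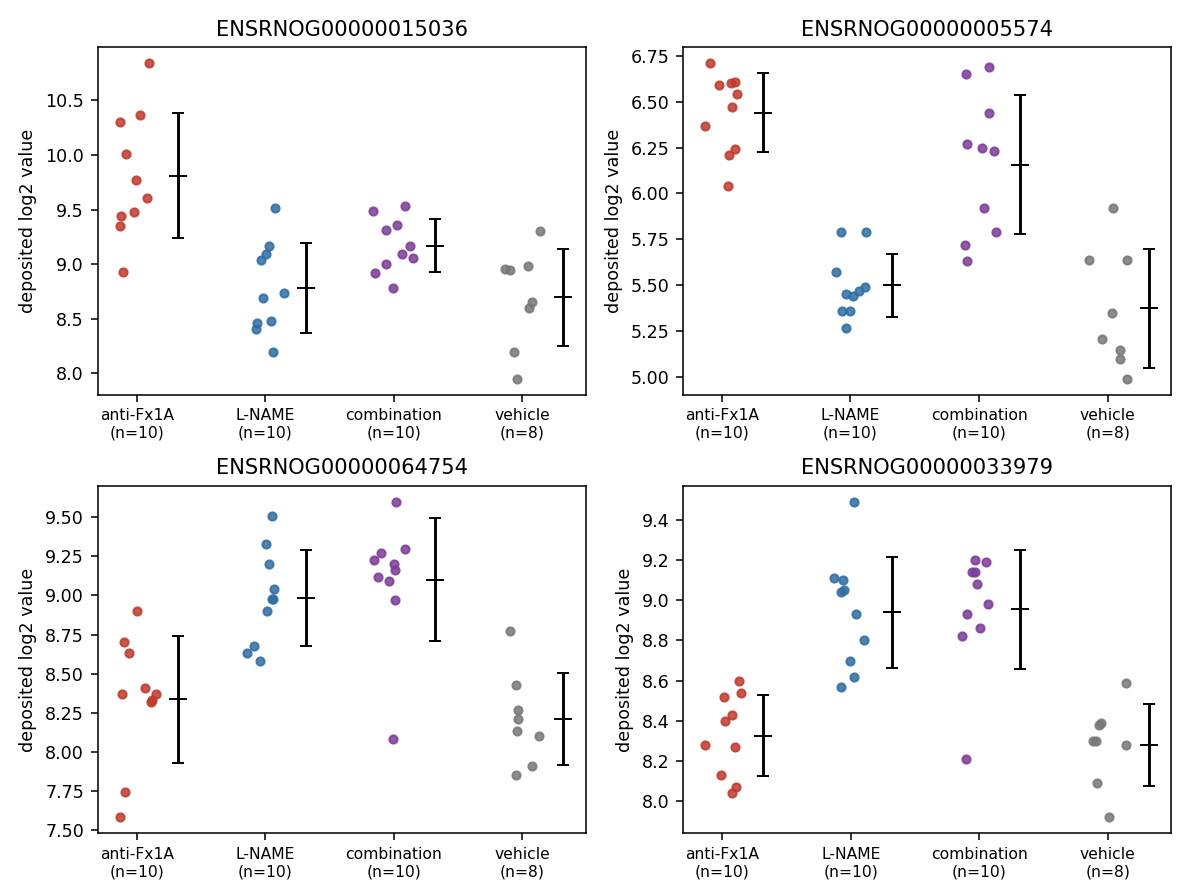
Deposited log2 level of the 4 genes with the largest called differences on this scale, 2 in each direction, in each animal of anti-Fx1A (n = 10), L-NAME (n = 10), the combination (n = 10) and vehicle (n = 8). Bars give the mean and SD; in the upper panels anti-Fx1A is highest, at means of 9.81 and 6.44, and in the lower panels L-NAME and the combination stand above anti-Fx1A and vehicle.

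The same contrast between the directions was seen in the medians of the 48 genes, though not in every gene, when the treatments were set beside vehicle. Among the 31 genes higher with anti-Fx1A, the median difference from vehicle was 0.48 with anti-Fx1A (range -0.19 to 1.29) and -0.056 with L-NAME (range -0.67 to 0.49). Among the 17 genes lower with anti-Fx1A it was 0.13 with anti-Fx1A (range -0.21 to 0.37) and 0.58 with L-NAME (range 0.16 to 0.85). Genes called lower with anti-Fx1A were therefore mostly genes whose level stood above vehicle with L-NAME and near vehicle with anti-Fx1A. Both differences rest on the same 8 vehicle animals, and the genes were chosen on the contrast of the treatments, so these medians are descriptions and carry no test.

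The vehicle animals lay near a different treatment for each direction. Their levels did not enter the difference on which genes were called, but vehicle and combination animals did enter the filter and the pooled spread of the fit. On a scale where 0 is the L-NAME mean and 1 the anti-Fx1A mean of a gene, vehicle had a median position of 0.12 for the 31 higher genes (quartiles -0.18 and 0.68) and of 1.23 for the 17 lower genes (quartiles 1.005 and 1.47). Vehicle was nearer to L-NAME in 21 of the 31 and nearer to anti-Fx1A in 16 of the 17. Over all genes tested it was nearer to L-NAME in 32.9%. The 31 higher genes were not uniform, since vehicle lay below both treatments in 14, between them in 12 and above both in 5.

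The combination held both agents, so it was set between the single treatments gene by gene. For the 17 lower genes its median position was -0.039 (quartiles -0.15 and 0.22), and it was nearer to L-NAME in all 17, above both treatments in 10 and between them in 7. For the 31 higher genes its median position was 0.38 (quartiles 0.037 and 0.64), nearer to anti-Fx1A in 13 and nearer to L-NAME in 18. In 23 of the 31 it lay between the treatments, in 7 below both and in 1 above both. Over all genes tested the combination was nearer to L-NAME in 69.0%. The count for the higher genes, 18 of 31, was not far from this background, and no difference from it is claimed. For the lower genes the share, 17 of 17, was above it, but the sets are unlike. Over all genes the median absolute difference between the treatments was 0.092, so for most genes the position divides by a small number. The 17 genes differed by -0.65 to -0.34, all in 1 direction. The antiserum dose in the combination was lower than in the anti-Fx1A group, and its part in these positions cannot be told apart from that of L-NAME.

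The 48 genes were also counted animal by animal. The share of the 48 genes in which an animal lay on the anti-Fx1A side of the midpoint between the treatment means ran from 70.8 to 100% in anti-Fx1A animals (median 85.4%) and from 0 to 29.2% in L-NAME animals (median 12.5%), the animals on which the genes were chosen. The combination animals lay between 14.6 and 45.8% (median 32.3%), and the vehicle animals between 50 and 58.3% (median 53.1%). Every combination animal was thus below every vehicle animal on this measure, which pools both directions. The mean level of the 17 lower genes was 7.53 to 7.92 in anti-Fx1A animals, 8.004 to 8.55 in L-NAME animals, 8.01 to 8.35 in combination animals and 7.54 to 7.85 in vehicle animals. On these genes the combination fell within the L-NAME range and vehicle within the anti-Fx1A range. The mean level of the 31 higher genes was 7.53 to 7.92 in anti-Fx1A animals, 7.00 to 7.28 in L-NAME animals, 7.18 to 7.52 in combination animals and 7.00 to 7.45 in vehicle animals. No combination or vehicle animal reached the anti-Fx1A range on the higher genes. On these genes alone the combination stood nearer to anti-Fx1A than vehicle did, with medians over animals of 7.41 and 7.28 and ranges that overlapped.

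**Figure D4:**
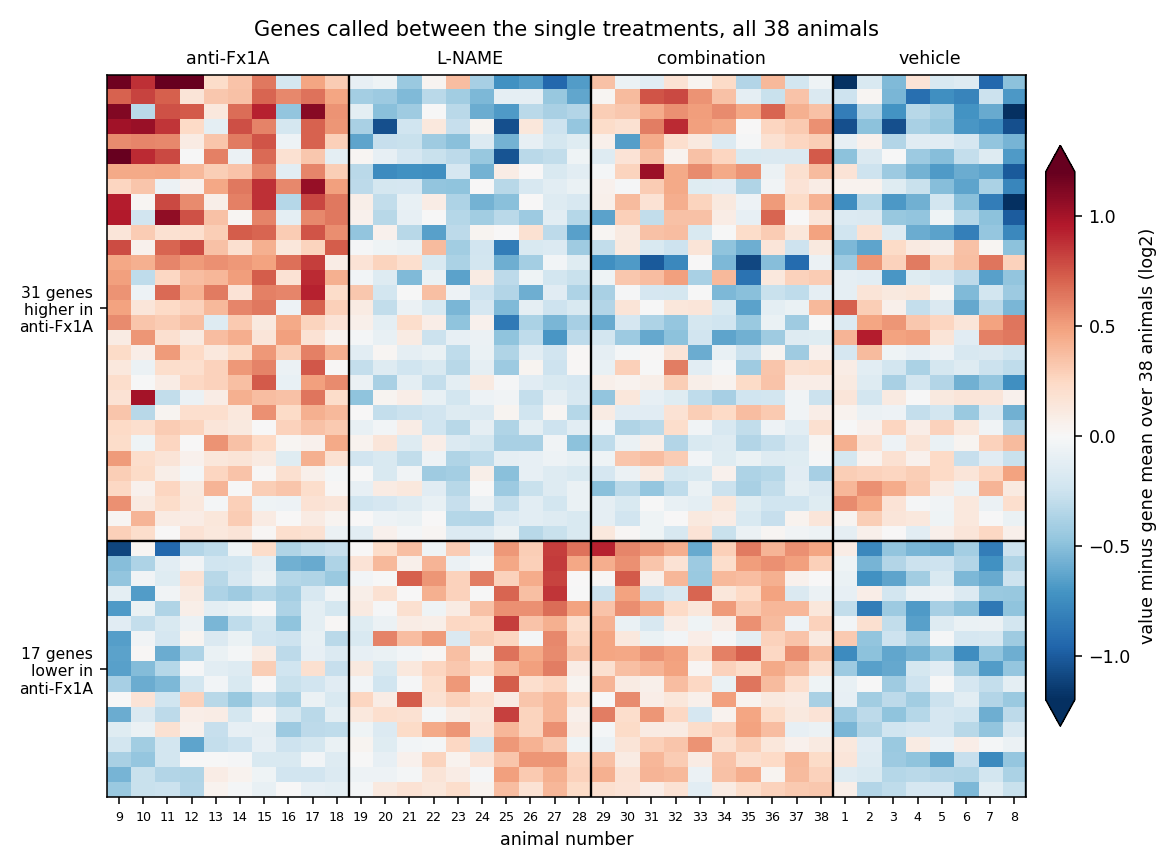
Level of each of the 48 called genes (rows) in each of 38 animals (columns, by number) as the log2 difference from the gene's mean over all animals; red is above and blue below that mean. The 31 genes higher with anti-Fx1A are above the line, each block ordered by the size of its difference, and in the 17 genes below the line L-NAME and combination animals are mostly red and anti-Fx1A and vehicle animals mostly blue.

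The difference between combination and vehicle uses none of the 20 single-treatment animals. In the fit of all 4 groups the spread is pooled, and genes called there for a small spread are more easily called in any comparison, so the counts below were also taken from separate fits. Of the 17 genes lower with anti-Fx1A than with L-NAME, 16 (94.1%) were called higher in the combination than in vehicle and 0 lower, where 18.4% of all genes tested were called higher and 17.4% lower (limma, adjusted p under 0.05). The remaining gene was 0.29 above vehicle (limma adjusted p = 0.0774). Of the other 31 genes, 14 (45.2%) were called higher in the combination, 7 (22.6%) lower and 10 were not called. With animals 9 to 12 or animals 13 to 18 left out of the fit, the counts called higher were 16 of the 17 and 15 of the 31 in both cases. The genes were still those chosen on all 10 anti-Fx1A animals, and only the pooled spread changed. These counts therefore cannot test how the result depends on the set of anti-Fx1A animals. In a fit of the combination and vehicle animals alone, 16 of the 17 were called higher and 0 lower, and 15 of the 31 higher and 8 lower, where the shares of all genes were again 18.4% higher and 17.4% lower. A fit of the single treatments alone called 22 genes, of which 20 were among the 48. Of its 20 higher genes, 11 were called higher and 2 lower in the fit of combination and vehicle alone, and both of its 2 lower genes were called higher. These fits share no animal and no estimate of spread, only the filter on the mean over 38 animals, and 2 lower genes are too few for a statement on that direction.

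The 31 genes were then split by their call in the combination against vehicle, a cut at an adjusted p of 0.05. The share called lower, 22.6%, was near the 17.4% of all genes tested, and no difference from it is claimed. The 14 genes that were also higher in the combination lay at a median of 0.83 log2 units above vehicle with anti-Fx1A, of 0.14 with L-NAME and of 0.48 in the combination. The 7 genes that were lower in the combination had medians of -0.065 with anti-Fx1A, -0.45 with L-NAME and -0.57 in the combination, so here it was L-NAME that stood away from vehicle. The 10 genes not called in the combination had medians of 0.32 with anti-Fx1A, -0.12 with L-NAME and -0.062 in the combination. In the combination these 10 ran from -0.27 to 0.47 against vehicle, so their median stands for no shared pattern. The lowest limma adjusted p among them was 0.0561. These groups of genes were formed on the combination and vehicle animals, and their medians carry no test.

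Across all 12599 genes, the difference between the single treatments ran opposite to the response to the combination. Pearson's r between anti-Fx1A minus L-NAME and combination minus vehicle was -0.61 and Spearman's rho -0.60, and 70.9% of genes had opposite signs. Leaving out 1 of the 20 single-treatment animals gave r between -0.69 and -0.47. With animals 9 to 12 left out r was -0.44, and with animals 13 to 18 left out it was -0.38. No p is given, since genes of the same libraries do not replicate each other. The called genes did not all follow this pattern, since the 14 higher genes that also rose in the combination lie on the opposite side of it.

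**Figure D5:**
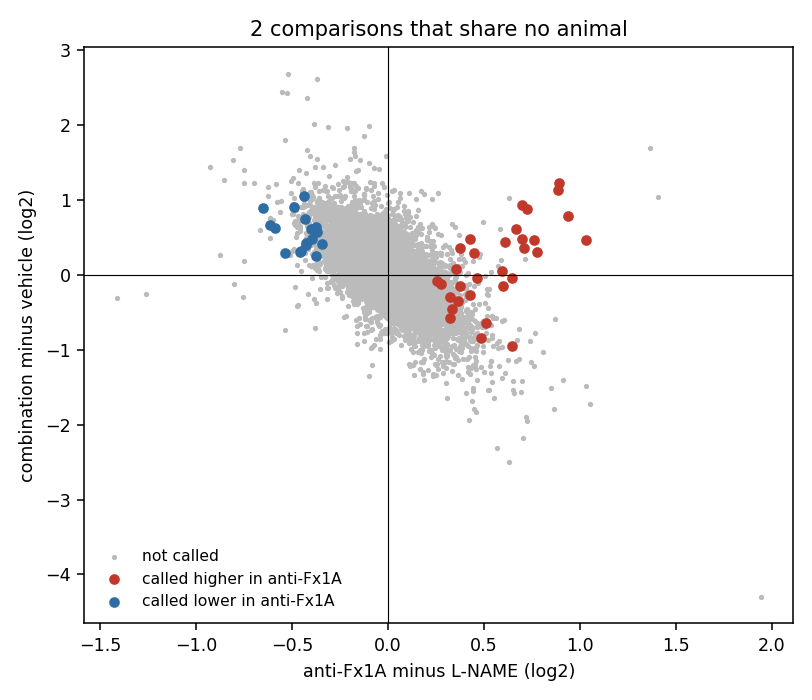
Difference between the single treatments (anti-Fx1A minus L-NAME, log2, horizontal) against combination minus vehicle (log2, vertical) for 12599 genes; no animal enters both axes. Grey genes slope downward (r = -0.61), the 17 genes called lower with anti-Fx1A (blue) all lie above 0 on the vertical axis, and the 31 called higher (red) lie on both sides of 0.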

How the data were processed

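Kidney RNA libraries were made with a QuantSeq 3' FWD kit from 500 ng of RNA, per the labels' protocols. Salmon 1.4.0, edgeR 3.40.2 and DESeq2 are named in the submitters' processing notes. The genome build was not given in the sources used here. Before deposit the authors had scaled the deposited log2 values by library and variance-stabilised them, as the table's name and values show: 30207 genes by 38 animals, and 2 header rows that were left out. Its lowest value, 4.32, stands for 0 reads, and inverting the curve gave whole reads (tolerance 0.05, up to 10000 reads) in every library. No label gives a batch or a pairing; animal numbers follow group order, and order and treatment cannot be told apart.

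The 12599 genes whose mean exceeded the lowest value by 1 log2 unit or more were fitted with limma 3.58.1 in R 4.3.3, all 4 groups in one model with trend and robust estimation, with Benjamini-Hochberg adjustment within each contrast at 0.05. The fit was tested on simulated data. Genes and lists were chosen with earlier results of these data known. The gene lists, the marker check and the named panel need symbols and were not run. Named genes were to be the 12 largest called differences per direction among genes with a symbol; without symbols the first 2 identifiers per direction were taken. Alternatives were another scaling, filter, variance model, weighting, voom on recovered reads, only the single treatments in the fit, and each animal left out. Added after seeing the data were the split of the anti-Fx1A animals, a fit of combination and vehicle alone and the depth and top-gene covariates. The plan gave the combination as levels only. Its contrast with vehicle, and the counts and correlation drawn from that contrast, were therefore not planned.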

Additional observations from a re-analysis of the deposited data

Results flagged for a closer look

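Of the 36 groups of values examined for a sample far from the others, 3 were flagged, where chance flags about 1 in 20 groups. ENSRNOG00000033979 had a lowest combination value of 8.21 (animal 33), within the vehicle range, while the other 9 animals of the combination exceeded every vehicle animal. ENSRNOG00000064754 likewise had a lowest combination value of 8.08, in the same animal. On the second principal component of the 20 single-treatment animals, which held 21.3% of the variance, anti-Fx1A animal 10 stood at 44.5, far above the rest of its group.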

How the results depend on the processing

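No paired analysis was possible because the animal numbers run from 1 to 38 and no number is shared between groups. All 48 genes kept their direction in each of the 33 alternatives in which they were tested, and 12 of them were not tested under the stricter filter. Counts were less stable. The total of 48 became 22 with only the single treatments in the fit (20 higher and 2 lower), 27 with no filter (5 lower), 137 without animals 9 to 12 (92 and 45), 1264 without animals 13 to 18 (689 and 575) and 85 with the top-gene share as a covariate (47 lower). With voom on recovered reads 17 were higher and 26 lower, against 31 and 17, and the median of all genes shifted by less than 0.1. Without the 3 libraries of lowest weight 8 were lower. Leaving out 1 animal gave 20 to 61 genes, 16 to 36 higher and 3 to 25 lower. The total moved by over 1.5 times without L-NAME animals 25 (20), 27 (21), 23 (25), 26 (27) or 28 (31), and without anti-Fx1A animals 9 (26), 14 (29) or 17 (29). The cause was not tested. Of the 48 genes, 19 were called whichever animal was left out (16 higher and 3 lower), and 7 in every alternative (6 and 1). Under the stricter filter, which tests fewer genes, 9 of the higher genes were called higher in the combination, against 14. ENSRNOG00000064754 reversed against vehicle without animals 13 to 18, to -0.12 (limma adjusted p = 0.740) against 0.13, neither called. Genes with few reads limit what this depth can show, and the deposited scale compresses their changes.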
